A study of Rattus norvegicus with 4 samples.

Results

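The genes described here are 4 simple epithelial keratins (Krt7, Krt8, Krt18 and Krt19) and 6 transcription factors known from trophoblast (Tfap2c, Tfap2a, Gata3, Gata2, Cdx2 and Elf5), 10 of the 32753 genes in the deposited tables. They were chosen by name, as the rows whose symbol equals a listed gene, and each symbol matched 1 row. RNA was measured by RNA-seq after removal of ribosomal RNA in rat embryoid bodies, the aggregates in which pluripotent stem cells start to differentiate. The 4 libraries are 2 of wild type (WT) and 2 of Kcnh2-/- embryonic stem cells, labelled strain DASD, all collected on day 4. Cells of both genotypes had been aggregated in hanging drops in a medium called CM with CHIR9902, PD0325901 and Y27632, moved to laminin without Y27632, and changed to a medium called DM for the last day. The labels state neither how Kcnh2 was altered, nor whether the Kcnh2-/- cells are 1 clone, nor whether the replicates came from separate cultures, so p-values measure only the spread between these samples, which may be technical.

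Keratins are the intermediate filament proteins of epithelial cells. They are built as pairs of a type II protein (Krt7 and Krt8 here) with a type I protein (Krt18 and Krt19), and the pair of Krt8 with Krt18 marks simple, single-layered epithelia, including trophectoderm and extraembryonic endoderm. The 6 factors belong to the network that sets up trophectoderm and the trophoblast stem cell state: Cdx2, Gata3 and Tfap2c act early in trophectoderm, Elf5 in trophoblast stem cells, and Gata2 and Tfap2a in later trophoblast. None of the 6 is restricted to trophoblast. Tfap2c also acts in germ cells and pluripotent cells, Cdx2 in the caudal embryo and gut, Gata2 in blood and Tfap2a in surface ectoderm and neural crest.

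Krt8 and Krt18 lie next to each other on rat chromosome 7 and gave the plainest contrast among these genes, so a stretch of 150 bases before each start site is shown. The sequences are from RefSeq (build GRCr8), whose promoter table held 5 of the 10 genes (Krt8, Krt18, Gata2, Gata3 and Cdx2). The Krt8 stretch is chr7:135010420-135010569 on the minus strand, from 230 to 81 bases before the annotated start. Its capitals mark TATAAA, the letters of the TATA box, matched on both strands in overlapping letters. The matches begin 106 and 104 bases before the start, and whether they serve as a TATA box of that start is not shown. The Krt18 stretch is chr7:135036018-135036167 on the plus strand, from 150 to 1 bases before the start, and its capitals mark GGGCGG, the GC box bound by SP1 and KLF factors.
Krt8: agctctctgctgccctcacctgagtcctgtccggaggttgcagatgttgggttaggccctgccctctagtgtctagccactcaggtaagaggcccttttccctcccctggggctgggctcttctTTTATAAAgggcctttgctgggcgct
Krt18: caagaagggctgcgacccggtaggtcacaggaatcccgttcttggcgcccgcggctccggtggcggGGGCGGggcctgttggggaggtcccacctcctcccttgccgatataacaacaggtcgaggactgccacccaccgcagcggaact
Over the 250 bases before the start, searched on both strands, TATAAA was found in the Krt8 window and in none of the other 4, and GGGCGG in those of Krt18 and Gata3. Only these exact letters were sought, so sequences that differ by a base were not counted. TATAAA occurred in 12.9% and GGGCGG in 30.5% of all 33469 promoters of that length. The AP-2 motif GCCNNNGGC, the sequence that Tfap2a and Tfap2c recognise, was found 1 time each in the windows of Krt18, Gata2 and Cdx2 and 2 times in that of Gata3, and it occurred in 12.6% of all promoters. The GATA motif AGATAA (10.3% of promoters) and the AP-1 motif TGANTCA (6.34%) were in none of the 5 windows. CCAAT (34.0%) was in that of Cdx2 alone.

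Values are RPKM, read counts scaled by transcript length and by the mapped reads of the library, so levels can be set side by side between genes. Pairs of values below give replicate 1 first and replicate 2 second. Total depth is unknown. Over genes above 0 in all libraries the median-of-ratios scaling factors of the RPKM values ran from 0.968 to 1.03. Since RPKM is already scaled by mapped reads, these factors do not show depth. Between 17610 and 17833 genes were above 0 in each library. Kcnh2 read 2.61 and 1.45 RPKM in the WT libraries, against 0.108 and 0.504 RPKM in the Kcnh2-/- libraries. Both Kcnh2-/- libraries were below both WT libraries, and the difference did not pass the test (limma adjusted p = 0.980). The Y-linked gene Eif2s3y had 153 and 135 RPKM in the WT libraries, beside 0.0574 and 0.140 RPKM in the Kcnh2-/- libraries (limma adjusted p = 0.0163). It so separated the groups as well. Each comparison of genotypes below thus also compares libraries high and low in this Y-linked RNA. In these libraries the Kcnh2 genotype and that difference cannot be told apart. WT replicate 1 stood apart from the other 3 libraries in the sums of some lineage marker lists. Its summed RPKM over 17 pluripotency genes was 825, against 2773 in WT replicate 2 and 2571 and 3022 in Kcnh2-/-. Over 15 blood and endothelial genes the sum was 49.6 in WT replicate 1, against 12.1 in WT replicate 2 and 14.6 and 12.1 in Kcnh2-/-. Pou5f1 and Dnmt3b were the most abundant listed pluripotency genes in every library, so the pluripotency sums were mostly theirs. They gave 273 and 430 RPKM in WT replicate 1, and 1043 and 1174 RPKM in Kcnh2-/- replicate 1. Not every gene of that list was lowest in WT replicate 1. Sox2 and Tbx3 were lowest in Kcnh2-/- replicate 1, and Sall4 in Kcnh2-/- replicate 2. Nanog, whose locus is shared by 4 entries, split by replicate number. It was low in both replicate 1 libraries (WT 2.50, Kcnh2-/- 8.695 RPKM) and higher in both replicate 2 libraries (WT 72.6, Kcnh2-/- 74.15 RPKM). Esrrb, Tfcp2l1, Klf5, Tbx3, Pou5f1, Sox2, Klf2, Klf4 and Utf1 were also lower in both replicate 1 than in both replicate 2 libraries. Dnmt3b, Fgf4, Tdgf1 and Sall4, the rest of the tested genes of the list, were not.

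In level, the 10 genes divided into abundant keratins and scarce factors. Krt18 and Krt19 were high and nearly level in all 4 libraries, Krt8 and Krt7 ranged widely, Tfap2c passed 13 RPKM in 3 libraries, and the other 5 factors stayed under 3 RPKM in every library. The plot of all 10 genes by library shows these levels.

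**Figure D1:**
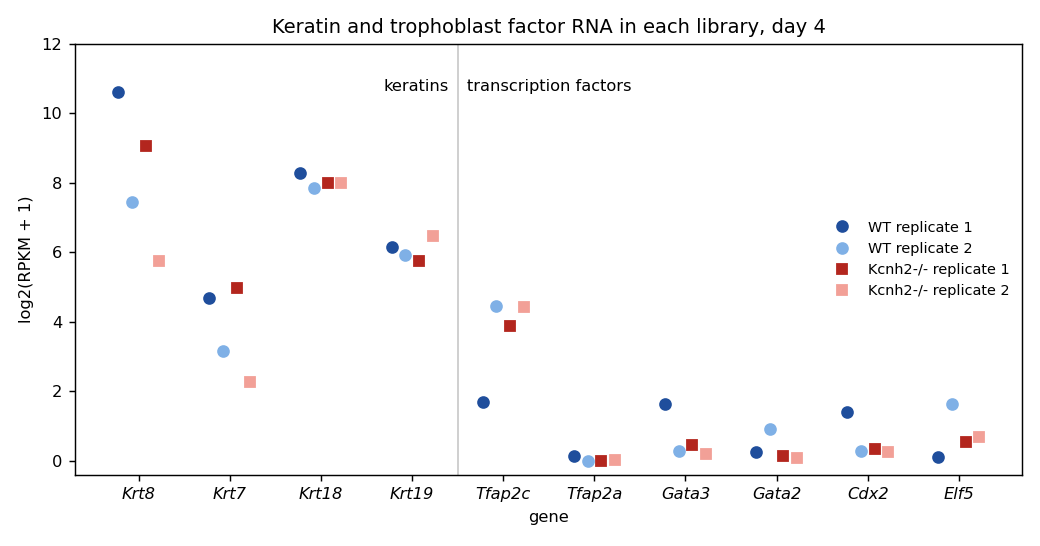
Level of each gene in each library as log2(RPKM + 1), with WT as circles and Kcnh2-/- as squares. Krt18 and Krt19 cluster tightly, Krt8 spreads from 53.1 to 1567 RPKM, and 5 of the 6 factors lie below 3 RPKM throughout.

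Krt8, the main type II keratin of simple epithelia (rn6 chromosome 7, 143596510 to 143603803), reached 1567 RPKM in WT replicate 1 and 175 RPKM in WT replicate 2, with 531 RPKM in Kcnh2-/- replicate 1 and 53.1 RPKM in Kcnh2-/- replicate 2. The groups overlapped, since Kcnh2-/- replicate 1 lay above WT replicate 2. Among protein-coding genes in order of RPKM, Krt8 held rank 55 in WT replicate 1, 485 in WT replicate 2, 176 in Kcnh2-/- replicate 1 and 1983 in Kcnh2-/- replicate 2. Within the same replicate number WT was 2.95 times as high as Kcnh2-/- for replicate 1 and 3.29 times for replicate 2. Between replicates of a genotype the ratio was larger, at 8.96 in WT and 10.01 in Kcnh2-/-. The labels do not say that a number marks a shared culture or day. Over all 4 libraries the log2(RPKM + 1) difference, Kcnh2-/- minus WT, was -1.63 ± 1.53 (SE), with a 95% interval from -5.70 to 2.44 and a limma adjusted p of 0.980. Leaving out WT replicate 1 gave -0.0518 and leaving out Kcnh2-/- replicate 2 gave 0.0191. Leaving out WT replicate 2 gave -3.21 and leaving out Kcnh2-/- replicate 1 gave -3.28, so the pooled value rested on which libraries were in it. These shifts follow from the gap between replicates, replicate 2 minus replicate 1, of -3.16 in WT and -3.30 in Kcnh2-/-. Within replicates 1 and 2 the log2 difference between genotypes was -1.56 and -1.70. How a term for the replicate number changed the result is given with the processing alternatives.

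Krt7, a type II keratin of ducts and trophoblast (chromosome 7, 143059763 to 143075907), gave 24.8 and 7.96 RPKM for WT libraries, against 30.5 and 3.81 RPKM for Kcnh2-/- libraries. Both replicate 1 libraries were above both replicate 2 libraries, as for Krt8, but the genotypes did not keep 1 order: the log2 difference was 0.29 within replicate 1 and -0.90 within replicate 2. The pooled difference was -0.31 ± 1.06 (SE, limma adjusted p = 0.984). Leaving out WT replicate 1 gave 0.46, and leaving out Kcnh2-/- replicate 2 gave 1.05.

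Krt18, the type I partner of Krt8 (chromosome 7, 143629454 to 143633131), measured 314 and 230 RPKM for WT, with 253 and 255 RPKM for Kcnh2-/-. The highest library was only 1.36 times the lowest, while for Krt8 that ratio was 29.5. Krt18 held ranks between 256 and 421 among protein-coding genes in the 4 libraries. The difference between genotypes was -0.0823 ± 0.30 on the log2 scale, with a 95% interval from -0.87 to 0.70 (limma adjusted p = 0.984).

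Krt19, the smallest keratin and a type I protein of simple and ductal epithelia, had 69.9 and 59.9 RPKM in the WT libraries, beside 52.9 and 88.2 RPKM in the Kcnh2-/- libraries, a highest-to-lowest ratio of 1.67. The groups overlapped. The log2 difference was 0.0772 ± 0.34 (SE), with a 95% interval from -0.82 to 0.98 (limma adjusted p = 0.987), and it was -0.40 within replicate 1 and 0.55 within replicate 2. The locus the files give for Krt19 (chromosome 10, 88055822 to 88163723) spans 108 kb and is shared with 8 other entries, among them Krt14, Krt16 and Krt17, so how reads of overlapping genes were divided there is not shown.

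The balance of the keratin types differed between replicate numbers in both genotypes. The ratio of Krt7 plus Krt8 to Krt18 plus Krt19 was 4.14 in WT replicate 1 and 1.84 in Kcnh2-/- replicate 1, but 0.63 in WT replicate 2 and 0.166 in Kcnh2-/- replicate 2. Type II RPKM thus exceeded type I RPKM in both replicate 1 libraries and was below it in both replicate 2 libraries. The summed RPKM over all genes also split by replicate number, being higher in both replicate 1 libraries. The part of that split in the keratin balance was not tested. Krt8 made up 93.3% to 98.4% of the type II sum and Krt18 made up 74.3% to 82.7% of the type I sum, so the ratio of Krt8 to Krt18 followed the same order, at 4.99, 0.76, 2.10 and 0.208 for WT replicates 1 and 2 and Kcnh2-/- replicates 1 and 2. With 2 libraries a group, an exact permutation test of such a ratio cannot give a p below 0.333.

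**Figure D2:**
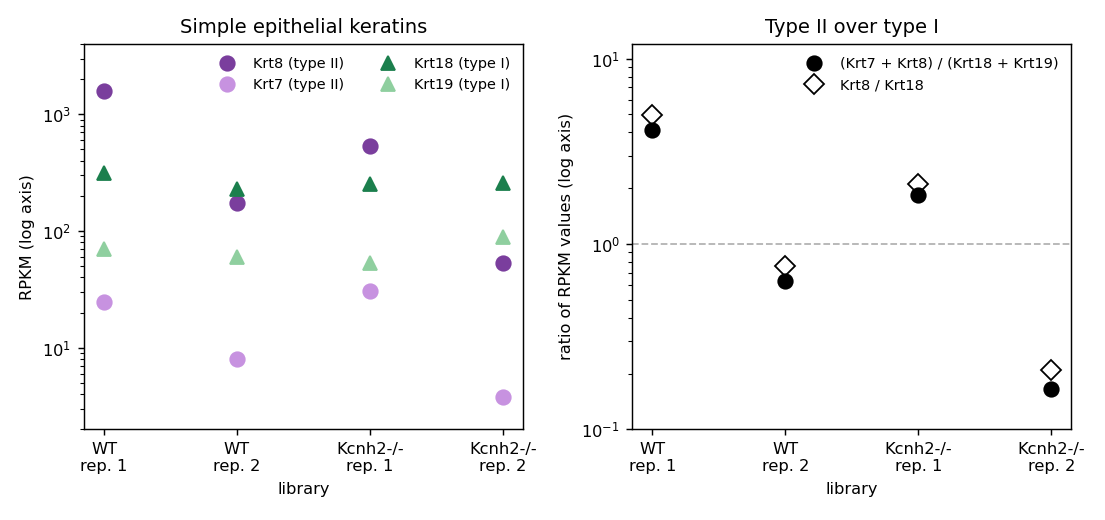
Left, RPKM of the 4 keratins in each library on a log axis, with type II as circles and type I as triangles. Right, the ratio of type II to type I RPKM (filled) and of Krt8 to Krt18 (open), with a dashed line at 1: replicate 1 libraries lie above 1 and replicate 2 libraries below it.

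The start of Krt18 lies 25.6 kb from the end of Krt8 in rn6, with 1 entry between them (AABR07058925.1, at most 0.165 RPKM). The next gene beyond Krt18, the translation factor gene Eif4b, gave 221 and 267 RPKM for WT libraries, against 249 and 242 RPKM for Kcnh2-/- libraries. In these libraries Krt8 varied widely, while Krt18 and Eif4b beside it stayed within narrow ranges. The RefSeq table of GRCr8 names 6 pseudogenes of Krt18 and 1 of Krt8. None matched an entry of the deposited tables by name, and whether reads of such copies were counted in Krt8 or Krt18 is not shown.

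The other keratins were scarce. Of 47 entries named Krt with a number, 39 were under 1 RPKM in every library and 6 passed the filter (1 RPKM or more in at least 2 libraries): the 4 described above, Krt17 and Krt10. The 4 together made up 98.4% to 98.9% of the summed keratin RPKM of each library. Krt17, a type I keratin of basal and stressed epithelium, measured 16.7 and 1.13 RPKM for WT, with 8.35 and 0.603 RPKM for Kcnh2-/-. Like Krt8 it was higher in the replicate 1 libraries and, within each number, lower in Kcnh2-/- (log2 difference -0.67 ± 1.35, SE, limma adjusted p = 0.980). Krt10, of differentiated skin, was between 0.739 and 1.29 RPKM. Krt5, the type II keratin of basal layers, was listed at 0 in all 4 libraries.

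Of the factors, Tfap2c (AP-2 gamma; chromosome 3, 170550313 to 170558194) was the only 1 to pass the filter. It had 2.26 and 20.9 RPKM in the WT libraries, beside 13.9 and 20.4 RPKM in the Kcnh2-/- libraries. WT replicate 1 was low and the other 3 libraries were close to each other, so the groups overlapped. The log2 difference was 1.08 ± 0.96 (SE), with a 95% interval from -1.47 to 3.63 (limma adjusted p = 0.980). It was 2.19 within replicate 1 and -0.0272 within replicate 2, and without WT replicate 1 it was -0.29. The pluripotency factor gene Pou5f1 gave 273 and 1203 RPKM for WT libraries, against 1043 and 1679 RPKM for Kcnh2-/- libraries, and was likewise lowest in WT replicate 1. Of 14 pluripotency genes tested 0 were called. The growth factor gene Fgf4 was at 5.45 and 15.3 against 19.4 and 39.8 RPKM, the Nodal co-receptor gene Tdgf1 at 41.3 and 226 against 240.3 and 409 RPKM, and the DNA methyltransferase gene Dnmt3b at 430.1 and 1016 against 1174 and 618 RPKM. All were lowest in WT replicate 1, as was Nanog, which was low in Kcnh2-/- replicate 1 too. The part of these cell states in the level of Tfap2c was not tested. In bulk RNA, fewer cells of a type and less RNA per cell cannot be told apart.

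Tfap2a (AP-2 alpha; chromosome 17, 24654901 to 24670457) was at 0.0959 RPKM in WT replicate 1 and 0.0135 RPKM in Kcnh2-/- replicate 2 and was listed at 0 in the other two libraries. Its relatives Tfap2b, Tfap2d and Tfap2e did not exceed 0.235 RPKM. Of this family Tfap2c alone was measured above 1 RPKM.

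Gata3, a zinc finger factor of trophectoderm (chromosome 17, 72429617 to 72450681), measured 2.11 and 0.229 RPKM for WT, with 0.379 and 0.137 RPKM for Kcnh2-/-. Cdx2, the caudal-type homeobox factor of trophectoderm and hindgut (chromosome 12, 9464025 to 9470565), had 1.68 and 0.214 RPKM in the WT libraries, beside 0.264 and 0.185 RPKM in the Kcnh2-/- libraries. Both were above 1 RPKM in WT replicate 1 alone and the other 3 libraries lay close together. Both were lower in Kcnh2-/- within each replicate number, with log2(RPKM + 1) differences of -1.17 and -0.112 for Gata3 and of -1.08 and -0.0345 for Cdx2. The pooled log2 differences of -0.64 and -0.56 became 0.0269 and 0.0122 without WT replicate 1. In that library the summed RPKM of the blood and endothelial list was also the highest, at 49.6 against 12.1 to 14.6 RPKM in the others. That of the endoderm list was so only without the X-linked gene Rhox5, at 470.6 against 140.1, 194.7 and 141.5 RPKM. The mesoderm gene T gave 13.9 and 3.30 RPKM for WT libraries, against 4.96 and 0.290 RPKM for Kcnh2-/- libraries, and the endothelial gene Emcn was at 5.28 RPKM there and listed at 0 in the other 3 libraries. The sum of the caudal list (15 genes found, 3 tested, 0 called, 5 entries at 0 throughout) was 26.3 and 30.5 RPKM for WT, with 15.5 and 13.9 for Kcnh2-/-, and Fgf8, a signal gene of the primitive streak, was at 9.06 and 19.3 against 7.87 and 3.94 RPKM. The part of those cell types in Gata3 and Cdx2 was not tested. Of 21 family relatives of the factors 9 were tested and 0 called, with Elf2, an ETS relative of Elf5, at 22.5 and 23.6 against 16.0 and 14.5 RPKM and Kctd15, an inhibitor of AP-2 factors, at 10.9 and 21.6 against 15.2 and 25.3 RPKM. The caudal relatives Cdx1 and Cdx4 stayed at or below 0.494 RPKM.

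Gata2, of trophoblast and blood (chromosome 4, 120133712 to 120142488), measured 0.199 and 0.898 RPKM for WT, with 0.111 and 0.0651 RPKM for Kcnh2-/-. It was the only 1 of the 10 genes whose groups did not overlap, and it was lower in Kcnh2-/-. Of the 20201 genes above 0 in at least 1 library, 14.4% were lower in Kcnh2-/- without overlap. Elf5, the ETS factor of trophoblast stem cells (chromosome 3, 93351618 to 93371656), had 0.0753 and 2.11 RPKM in the WT libraries, beside 0.472 and 0.610 RPKM in the Kcnh2-/- libraries. WT replicates 1 and 2 were its lowest and highest library, with both Kcnh2-/- libraries between them. Gata2, Gata3, Cdx2, Elf5 and Tfap2a did not pass the filter and were not tested there. In a fit of every gene above 0 in at least 1 library their limma adjusted p-values ran from 0.948 to 0.959.

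Of the 10 genes, 5 were tested and 0 passed (limma, adjusted over 12355 genes, of which 0.113% passed in either direction). None of the 5 was at an unadjusted limma p under 0.05, against 3.38% of the genes tested. Within both replicate numbers 4 of the 10 (Krt8, Gata2, Gata3 and Cdx2) were lower in Kcnh2-/- and 0 were higher, where 25.8% and 25.2% of the 20201 genes did so. The plot of the differences shows the pooled value of each gene beside those by replicate number. Krt8 is the one gene with both values by number beyond 1.5 log2 units.

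**Figure D3:**
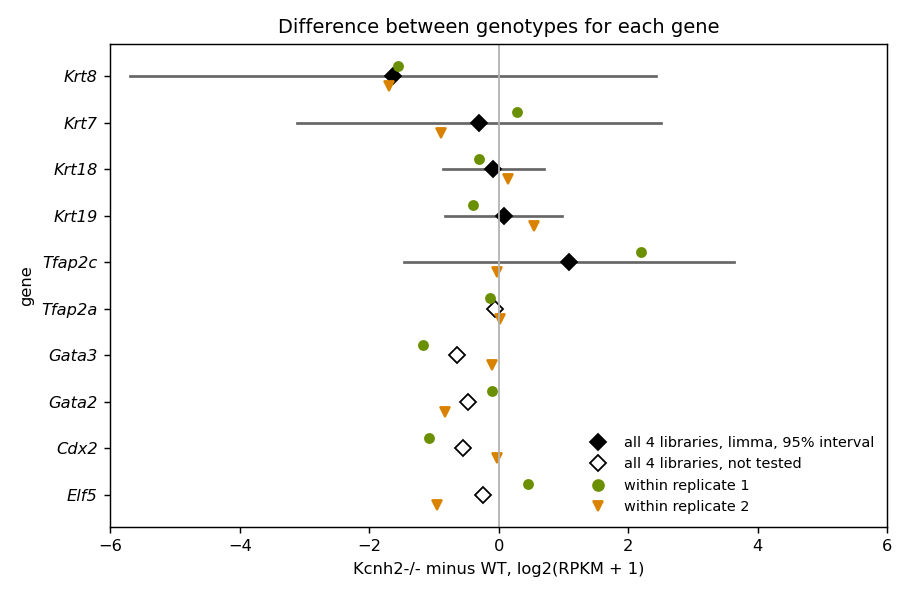
Difference Kcnh2-/- minus WT in log2(RPKM + 1) for each gene: diamonds, all 4 libraries (filled with the limma 95% interval where tested, open where not); circles and triangles, within replicates 1 and 2. All 5 intervals span 0, and for Krt8 both values by number lie close to the pooled -1.63.

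Other genes of trophoblast gave no common direction. Of 26 listed genes 25 had an entry, 14 passed the filter and 0 passed the test in either direction. Their median log2 difference was 0.0298, against 0.00524 over all genes tested, with 2 lower and 2 higher without overlap, near the 15.3% and 16.7% of all genes tested. Tead4, which acts upstream of Cdx2 in trophectoderm, gave 7.70 and 4.21 RPKM for WT libraries, against 1.80 and 2.24 RPKM for Kcnh2-/- libraries (log2 difference -1.16 ± 0.40, SE, limma adjusted p = 0.980). Ets2, another trophoblast factor, measured 31.7 and 52.0 RPKM for WT, with 92.2 and 67.0 RPKM for Kcnh2-/- (0.94 ± 0.36, adjusted p = 0.980). Esrrb, shared by trophoblast stem cells and naive pluripotent cells, was at 1.58 and 20.5 against 4.47 and 27.9 RPKM and so split by replicate number. Eomes, a T-box factor of trophoblast stem cells and of the primitive streak, lay between 8.70 and 11.5 RPKM, with both Kcnh2-/- libraries above both WT libraries (adjusted p = 0.980 by limma). The placental differentiation genes Tpbpa, Plac1, Prl3b1 and Prl2c1 were listed at 0 in all 4 libraries, and Gcm1 and Prl3d1 did not exceed 0.0653 RPKM. These 6 genes were picked from the list after its values were seen, and they hold all 7 of its entries under 1 RPKM in every library. Plet1, Cdh3 and Fgfr2 of the same list, also named after their values were seen, were highest in WT replicate 1, at 25.6, 10.95 and 12.6 RPKM. Ets2 and Esrrb were not highest there. Since the 6 differentiation genes were picked after their values were seen, they cannot decide on the trophoblast in this gene set's name. The presence of trophoblast, early or late, was not tested. The 6 factors are described here by gene and not as a cell type.

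Genes of simple epithelia other than these keratins spanned a wide range of levels, with 3 of 28 listed genes under 1 RPKM in every library. Epcam, an adhesion molecule of epithelia and pluripotent cells, had 171 and 234 RPKM in the WT libraries, beside 272 and 263 RPKM in the Kcnh2-/- libraries, and Cdh1 (E-cadherin) was at 103 and 142 against 110 and 75.4 RPKM. Spint2, a protease inhibitor of epithelia, was at 191 and 88.4 against 149 and 154 RPKM. Of 28 simple epithelium genes 24 were tested and 0 passed. Their median log2 difference was -0.41, against 0.00524 over all genes tested. Within both replicate numbers 13 of the 24 were lower in Kcnh2-/- and 3 were higher, against 28.1% and 30.8% of all 12355 genes tested. Without overlap 5 were lower and 3 higher, where 15.3% and 16.7% of all genes tested were.

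Genes of desmosomes and of keratin linkers are given as a description only, since they were picked from that list after its values were seen. Of 9 such genes 8 were tested, and 6 of the 8 were lower in Kcnh2-/- within both replicate numbers (Dsp, Dsg2, Dsc2, Pkp2, Jup and Ppl), where 28.1% of all genes tested were. Perp and the linker gene Plec went opposite ways in the 2 numbers, as did Evpl, which was not tested. Of 4 epithelial regulators, also picked after their values were seen, 0 were lower within both numbers, 1 was higher and 3 were mixed. So few genes cannot be told apart from the 28.1% of all genes tested that were lower. Desmoplakin (Dsp), which anchors keratins at desmosomes, gave 66.6 and 23.4 RPKM for WT libraries, against 28.5 and 12.6 RPKM for Kcnh2-/- libraries. Ladinin (Lad1), an anchoring protein of epithelia, was at 39.9 and 12.7 against 18.9 and 5.09 RPKM. Both put the 4 libraries in the same order as Krt8 did, over a narrower range. Cldn4, Cldn6, Ppl, Pkp2, Dsc2 and Dsg2 of the simple epithelium list had that order too. How many of all genes share the order was not counted. Plakoglobin (Jup) was at 27.5 and 22.5 against 15.4 and 15.1 RPKM, with no overlap (log2 difference -0.67 ± 0.26, SE, limma adjusted p = 0.980). The claudin gene Cldn7 was at 68.9 and 74.8 against 52.6 and 43.7 RPKM, also without overlap (adjusted p = 0.980). Among the epithelial regulators, Grhl2 stayed between 14.2 and 18.2 RPKM and Ovol2 between 14.9 and 16.9 RPKM, the latter slightly higher in Kcnh2-/- without overlap (adjusted p = 0.980 by limma). The log2 differences within replicates 1 and 2 were 0.0932 and -1.36 for Elf3 and 0.413 and -0.680 for Esrp1.

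**Figure D4:**
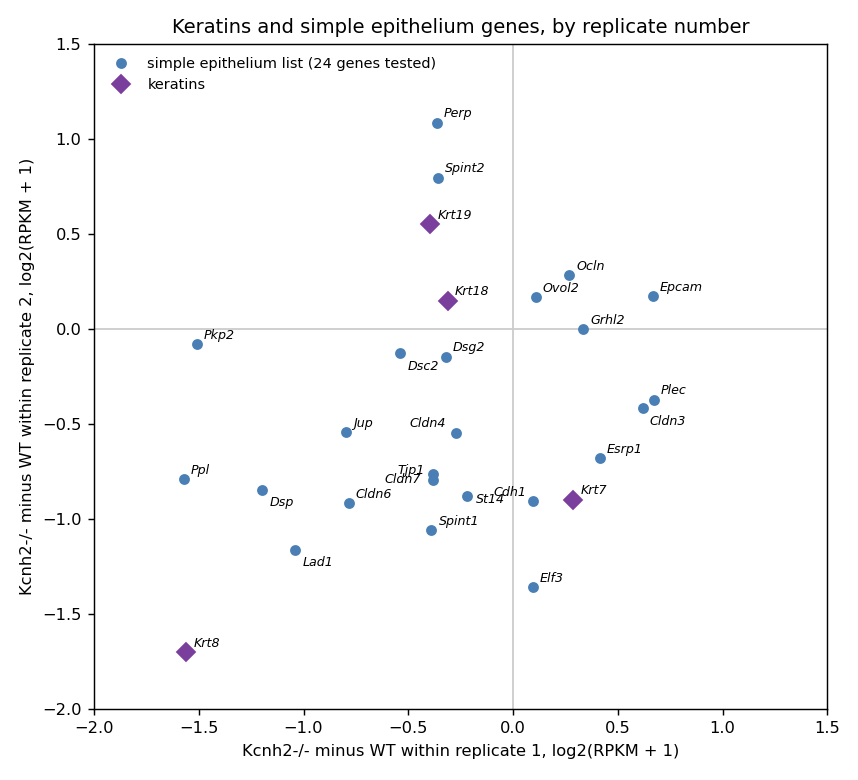
Each point is a gene, placed by its difference Kcnh2-/- minus WT in log2(RPKM + 1) within replicate 1 (horizontal) and within replicate 2 (vertical). Krt8 lies lowest, with Lad1, Ppl and Dsp the nearest to it, while Krt18 and Krt19 lie above 0 on the vertical axis and to the left of 0 on the horizontal axis.

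Genes whose profile over the 4 libraries was closest to that of Krt8 were sought by the root-mean-square distance between log2(RPKM + 1) values, each centred on the gene's own mean. With 4 libraries such likeness is a description and many genes can come close. The 5 closest protein-coding genes were Fhl2 (distance 0.13), Acta1 (0.18), Plat (0.21), F3 (0.23) and Tmprss2 (0.27). Acta1, an actin gene, measured 325 and 25.0 RPKM for WT, with 88.7 and 8.61 RPKM for Kcnh2-/-, and F3, which encodes tissue factor, was at 163 and 10.7 against 46.9 and 3.54 RPKM. Of 12354 genes Krt7 ranked 145 in closeness to Krt8, Krt18 ranked 3267 and Krt19 ranked 7765, so its filament partner was far from the closest. For Gata3 the 5 closest were Mapkapk2 (0.0247), Snx1 (0.0356), Fam89b (0.0497), Arhgef26 (0.0505) and Enho (0.0529), each at its highest in WT replicate 1.

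Markers of other cell types that express these keratins or factors were measured alongside. The endoderm list (24 genes, 15 tested, 0 called, none listed at 0 throughout) summed to 541 and 315 RPKM in WT and to 584 and 382 in Kcnh2-/-, and within both numbers Kcnh2-/- was the lower for 10 of its 15 tested genes and the higher for 1, against 28.1% and 30.8% of all genes tested. Rhox5, an X-linked homeobox gene of extraembryonic tissue and testis whose locus is shared by 3 entries, was at 70.4 and 174 against 390 and 241 RPKM. Without it the endoderm sums were 470.6 and 140.1 RPKM for WT and 195 and 142 RPKM for Kcnh2-/-, so WT replicate 1 was the highest. Lrp2, an endocytic receptor of visceral endoderm, was at 9.82 and 12.1 against 7.10 and 5.60 RPKM, and Sparc, a matrix protein gene of parietal endoderm, at 159 and 45.8 against 93.0 and 58.2 RPKM. Gata4 and Gata6, the endoderm relatives of Gata2 and Gata3, were at 5.19 and 1.32 against 1.54 and 0.0265 RPKM and at 6.07 and 0.804 against 1.05 and 0.406 RPKM. Both, named after their values were seen, were highest in WT replicate 1 and lowest in Kcnh2-/- replicate 2, as Krt8 was. The surface ectoderm and amnion list (20 genes, 6 tested, 0 called, with Krt5 and Dlx6 at 0) summed to 117 and 22.9 RPKM in WT and to 30.9 and 26.2 in Kcnh2-/-, with Igfbp5 at 51.3 and 3.36 against 4.82 and 1.75 RPKM. The homeobox gene Msx2 was at 7.11 and 1.07 against 2.10 and 1.52 RPKM and the signal gene Bmp4 at 9.17 and 7.45 against 5.35 and 13.9 RPKM. In the germ cell list (12 genes, all tested, 0 called) the WT sums were 99.5 and 263 RPKM and the Kcnh2-/- sums 256 and 527 RPKM, and Ddx4, which encodes an RNA helicase of germ cells, was at 7.75 and 27.9 against 105 and 81.9 RPKM. The receptor gene Kit was at 47.7 and 11.9 against 11.5 and 5.12 RPKM, and Dppa3, whose locus is shared by 4 entries, at 26.1 and 191 against 117 and 393 RPKM. In the blood and endothelial list (15 genes, 5 tested, 0 called, none at 0 throughout) the factor genes Hhex and Lmo2 were at 8.90 and 6.67 against 5.47 and 6.65 RPKM and at 7.55 and 0.384 against 1.21 and 0.784 RPKM. The part of these cell types in the levels of Krt8, Krt7, Tfap2c, Gata3 and Cdx2 was not tested.

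**Figure D5:**
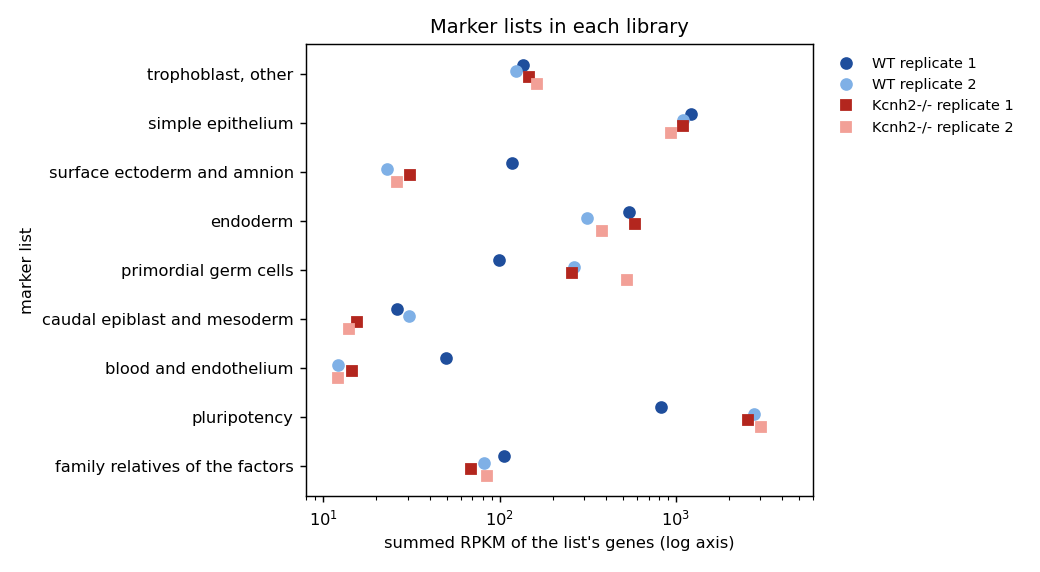
Summed RPKM of each marker list in each library on a log axis, with WT as circles and Kcnh2-/- as squares. WT replicate 1 lies apart from the other 3 libraries for surface ectoderm and amnion (117 against 22.9 to 30.9), blood and endothelium (49.6 against 12.1 to 14.6) and pluripotency (825 against 2571 to 3022). The pluripotency sums are mostly Pou5f1 and Dnmt3b.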

How the data were processed

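Each library came as 1 table of RPKM values by gene, made by the authors with TopHat2 2.0.13 and Cufflinks 2.2.1 on rn6, per the submitters' processing notes; the annotation and the use of strand are not given in the sources used here. Protein-coding genes were taken by symbol or synonym from a RefSeq table (GRCr8, names and biotypes only), which matched 19341 of 32753 symbols. Genotypes were compared with limma 3.58.1 in R 4.3.3 (a two-sided test with a variance trend) of log2(RPKM + 1) values for the 12355 genes that reached 1 RPKM in 2 or more libraries; p-values were adjusted by Benjamini-Hochberg and called under 0.05. A pseudocount of 1 understates changes of low genes. Of 484 genes under 0.08 RPKM in both replicate 1 libraries, 30.4% had the same ratio within 1 bin of 0.01, as had 32.8% of 650 for replicate 2, but only 13.9% and 14.5% between replicates of WT and of Kcnh2-/-; absolute depth stays unknown. RPKM sums, to which non-coding and unmatched genes gave 90.3% to 99.5%, were 7.95e+07 and 1.09e+08 in the replicate 1 libraries and 1.17e+07 and 8.93e+06 in the replicate 2 libraries, so values within each number are given. Named genes are Kcnh2, the 10 genes, other keratins that passed the filter, from each list the 2 of smallest p and the 2 of highest mean, and the closest profiles; others (among them Gata4, Gata6, Emcn, Dsp, Lad1, Cdh1 and Eomes) were chosen after their values were seen. The genes and lists were chosen with earlier results of these data known. The fit was tested on simulated data and repeated under 13 alternatives of pseudocount, filter, scaling, replicate block, trend and left-out libraries. Plots were made with Python 3.11.15 and matplotlib 3.10.9.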

Additional observations from a re-analysis of the deposited data

How the results depend on the processing

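Of the 5 tested genes 0 passed under 12 of 13 alternatives. The exception joined the replicate number as a term (replicate block) with protein-coding genes only: 1 gene passed, Krt8 (limma log2 difference -1.63 ± 0.21, SE, adjusted p = 0.0152), with 57 genes called higher and 25 lower over all (0.756% of those tested). With the replicate block over all genes Krt8 had an adjusted p of 0.139 and 14 genes were called higher. The labels do not pair the replicates, and deviations of the replicate 1 libraries from their group means correlated across genes at 0.381; genes are not independent. Against 4 called higher and 10 lower, the counts were 7 higher with a pseudocount of 0.1, 0 and 1 with no filter, 1 higher with median-of-ratios scaling, 8 higher with quantile normalization, and 0 and 3 both with protein-coding genes only and without the variance trend. Leaving out each library gave 0 called higher and 0 to 15 lower. The sign turned for Krt19 with quantile normalization (-0.10) and for the untested Elf5 with a pseudocount of 0.1 (-0.25 to 0.0354), which also took Gata3 from -0.64 to -1.34, Cdx2 from -0.56 to -1.21, Gata2 from -0.47 to -1.55 and Tfap2a from -0.0564 to -0.39. Over the left-out libraries Krt8 ran from -3.28 to 0.0191, Krt7 from -1.66 to 1.05, Krt18 from -0.31 to 0.14, Krt19 from -0.29 to 0.44 and Tfap2c from -0.29 to 2.46; where 1 library was left in a group it is assumed to vary like the others. The cause was not tested. With 2 libraries a group and no counts, values near 0 carry no interval.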

Other observations

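Of 7 listed markers and relatives on the X chromosome, looked at after their values were seen, 4 (Gata1, Esx1, Rhox5 and Cdx4) were higher in both Kcnh2-/- libraries than in either WT library, and Cited1, Elf4 and Plac1 were not. Over all genes above 0 in at least 1 library 14.1% were. The groups also differed in the Y-linked gene Eif2s3y, and the part of the sex chromosomes in these levels was not tested. Gata1, a blood relative of Gata2, had 0.153 and 0.186 RPKM in the WT libraries, beside 2.11 and 2.59 RPKM in the Kcnh2-/- libraries (limma log2 difference 1.51 ± 0.36, SE, adjusted p = 0.980). The placental homeobox gene Esx1 was at 0.136 and 0.388 against 1.70 and 0.921 RPKM, and Cited1, a transcriptional cofactor gene, at 16.1 and 5.30 against 10.1 and 20.3 RPKM. The erythroid gene Hbb was at or below 0.223 RPKM in all 4 libraries. Hba-a1 of the same list was at 4.62 RPKM in WT replicate 1 and 0.495 RPKM in Kcnh2-/- replicate 1. It was listed at 0 in both replicate 2 libraries. Klf1, also of that list, lay between 1.07 and 2.73 RPKM.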
